A study of Homo sapiens with 4 samples.

Results

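hsa-miR-192, hsa-miR-194 and hsa-miR-215 are microRNAs (miRNAs) of the gut, liver and kidney, and were followed here in exosomes and cells of a pair of human breast lines. They were chosen by name, as 3 of the 1100 mature miRNA names for which values were deposited, and all 3 were above 0 in every library. The groups were exosomes of MDA-MB-231, exosomes of MCF-10A, MDA-MB-231 cells and MCF-10A cells, with 1 small RNA library in each group. The MDA-MB-231 line comes from a triple-negative breast cancer and was kept in medium holding 10% fetal bovine serum. The MCF-10A line is mammary epithelium that is immortal but not transformed, and its medium held 5% horse serum, insulin, EGF, cholera toxin and hydrocortisone. Exosomes are small vesicles that cells release. With 1 library a group, differences have no replicate check and no p-value is given. Levels are the deposited log2 values, taken as reads per 10000000 miRNA reads with 1 added before the logarithm. The whole reads recovered from them came to 1533546 for MDA-MB-231 exosomes, 1254422 for MCF-10A exosomes and 7340453 for MDA-MB-231 cells, with 10930126 for the library labelled MCF-10A cell. Ranges in parentheses are exact 95% counting intervals, which cover counting error only, since no molecular identifiers are described and PCR copies are not independent. The ranges also leave out the deposited rounding of 0.347%, to which high read counts are known.

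A miRNA guides the Argonaute protein to messenger RNAs, mainly through its seed, the bases 2 to 8 from its 5′ end, and lowers their translation and stability. miR-192 and miR-194 are cut from 1 primary transcript, miR-215 and a further copy of miR-194 from another. In gut, liver and kidney epithelium these transcripts depend on the hepatocyte nuclear factors HNF1 and HNF4, and in several cell types p53 raises them. miR-192 and miR-215 share targets of the cell cycle and the epithelial repressor ZEB2, and in kidney miR-192 is known for its response to TGF-β.

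The mature sequences are shown because they decide which reads the 3 names can share. They are RefSeq's entries for the 5′ arms, read 5′ to 3′, with the seed in capitals.
hsa-miR-192: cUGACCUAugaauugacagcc
hsa-miR-215: aUGACCUAugaauugacagac
hsa-miR-194: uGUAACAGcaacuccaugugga
miR-192 and miR-215 have the same seed and 19 of 21 bases in common. The substitutions from miR-192 to miR-215 are C1A and C20A, counted from the 5′ end, so a read trimmed at both ends cannot separate them. Matching with mismatches allowed can also merge miR-192 and miR-215, unless the better match is kept. How the authors assigned such reads is not given in the sources used here, so the division of reads between these names is uncertain. Of 2370 mature names in the RefSeq table, 2 carry the seed UGACCUA, and these are miR-192 and miR-215. The seed GUAACAG belongs to 1 name, miR-194. The mature miR-194 is identical at its 2 loci, and its reads cannot be assigned to either.

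The files give no coordinates; those here are RefSeq's on GRCh38.p14, all on the minus strand. MIR192 lies on chromosome 11 at 64891137 to 64891246 and MIR194-2 at 64891355 to 64891439, with 108 bases between them, and both lie within an exon of the long non-coding RNA MIR194-2HG in GENCODE release 29. MIR215 lies on chromosome 1 at 220117853 to 220117962 and MIR194-1 at 220118157 to 220118241, with 194 bases between them. This pair lies inside an intron of IARS2, a mitochondrial isoleucyl-tRNA synthetase gene, on the strand opposite to it.

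The promoter window of MIR194-2HG is shown because miR-192 and 1 copy of miR-194 come from this transcript. It is RefSeq's 300 bases, chr11:64893400-64893699, minus strand, 250 bases before and 50 after the start, with capitals where an 11-letter part of the HNF1 consensus matched.
MIR194-2HG promoter: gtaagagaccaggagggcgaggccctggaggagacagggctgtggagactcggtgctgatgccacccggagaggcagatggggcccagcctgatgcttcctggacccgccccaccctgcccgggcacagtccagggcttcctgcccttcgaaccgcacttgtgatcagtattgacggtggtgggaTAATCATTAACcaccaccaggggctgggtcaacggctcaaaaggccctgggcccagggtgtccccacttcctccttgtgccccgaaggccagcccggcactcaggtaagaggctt
Both strands were searched. The full HNF1 palindrome GTTAATNATTAAC had 0 matches in this window and is in 2 of 35116 promoters of this length. The 11 letters GTTAATNATTA, a shortening chosen after the window was read, matched once on the other strand, 65 to 55 bases before the start, and are in 0.111% of promoters. The shorter GTTAAT, which lies within that match, is in 6.88%. A match describes the letters and is not evidence of binding in these lines.

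Before the 3 miRNAs are compared, the library labelled MCF-10A cell needs a description, since it stands apart from the others. Lists of miRNAs of 6 other tissues (35 names: stroma and vessel, blood, muscle, neural, liver, and other intestine, kidney and pancreas) made up 2.34% of reads in MDA-MB-231 exosomes, 0.0829% in MCF-10A exosomes and 0.0708% in MDA-MB-231 cells, with 48.7% in the library labelled MCF-10A cell. The lists were chosen with earlier results of these data known, so these shares describe the libraries and are not a test. Of the 35 names, 20, 11, 11 and 34 had at least 10 reads in the same order of libraries. The stroma and vessel list summed to 142000, 2827, 2786 and 3387000 reads per 10000000, the blood list to 59970, 1567, 1296 and 179200, the muscle list to 1810, 15.91, 10.92 and 1243000 and the neural list to 1723, 3524, 2717 and 34520. In the stroma and vessel list miR-199a-3p and miR-199b-3p had equal log2 levels in every library (11.88, 4.08, 3.2 and 17.34). The same reads may therefore be counted under both names. The most abundant name of the muscle list, miR-1, had log2 levels of 10.72, 4.08, 3.4 and 20.13. The 7 names of breast and basal epithelium, miR-200c and its relatives, miR-205 and miR-203, summed to 2318, 441000, 4593 and 100800. The identity of this library is therefore in doubt, and a difference from it is one between libraries, not shown to be one between lines or fractions. A further MCF-10A cell library was not analysed here, so each result that uses this one is given beside those that do not.

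miR-192 was the most abundant of the 3 in every library but the one labelled MCF-10A cell. Its level was 13.53 in MDA-MB-231 exosomes (1813 reads), 12.36 in MCF-10A exosomes (659 reads) and 12.45 in MDA-MB-231 cells (4110 reads), with 15.95 in the library labelled MCF-10A cell (69240 reads, known to the deposited rounding of 0.347%). It was therefore well within the detected range in both lines, at rank 59 of the 508 names above 0 in MDA-MB-231 exosomes, 62 of 436 in MCF-10A exosomes, 70 of 566 in MDA-MB-231 cells and 26 of 794 in the library labelled MCF-10A cell. As shares of all miRNA reads these levels were 0.118% (0.113 to 0.124), 0.0525% (0.0486 to 0.0567), 0.0560% (0.0543 to 0.0577) and 0.633% (0.629 to 0.638) in that order. The intervals of MCF-10A exosomes and MDA-MB-231 cells overlapped, and no other pair did.

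miR-194 stood at 10.52 in MDA-MB-231 exosomes (225 reads), 10.11 in MCF-10A exosomes (139 reads) and 8.94 in MDA-MB-231 cells (360 reads), with 16.54 in the library labelled MCF-10A cell (104223 reads, known to the deposited rounding of 0.347%). Its share of reads was 0.0147% (0.0128 to 0.0167), 0.0111% (0.00932 to 0.0131), 0.00490% (0.00441 to 0.00544) and 0.954% (0.948 to 0.959) in that order. The exosome libraries overlapped in these intervals, MDA-MB-231 cells lay below both, and the library labelled MCF-10A cell lay far above. There miR-194 was the highest of the 3 and ranked 18, against ranks of 124, 116 and 161 in the others.

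miR-215 was the lowest of the 3 in all 4 libraries. It stood at 9.57 in MDA-MB-231 exosomes (116 reads), 7.91 in MCF-10A exosomes (30 reads) and 6.55 in MDA-MB-231 cells (68 reads), with 15.39 in the library labelled MCF-10A cell (46965 reads, known to the deposited rounding of 0.347%). Its share was 0.00756% (0.00625 to 0.00907), 0.00239% (0.00161 to 0.00341), 0.000926% (0.000719 to 0.00117) and 0.430% (0.426 to 0.434) in that order. None of these 4 intervals overlapped.

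**Figure D1:**
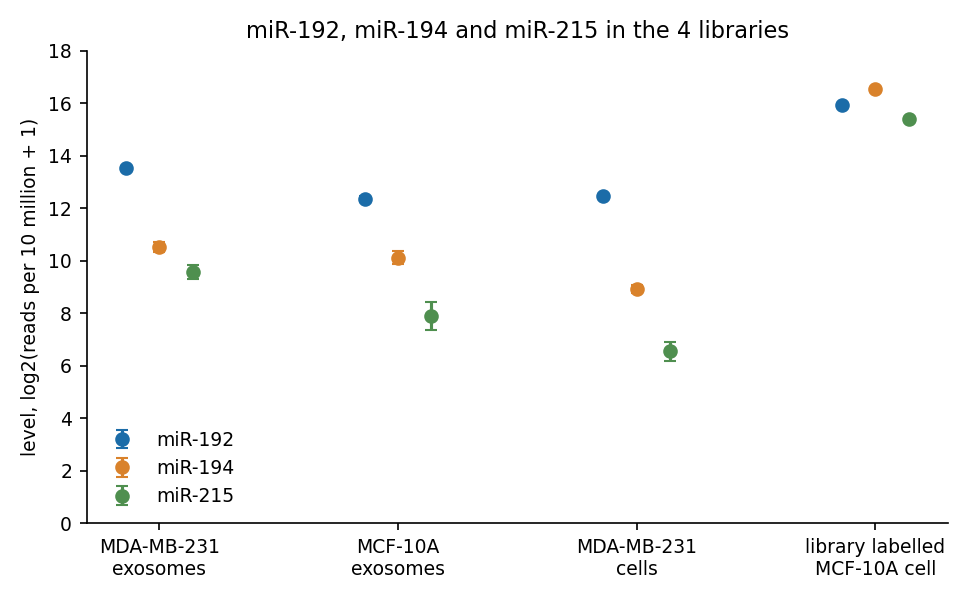
Level of miR-192, miR-194 and miR-215 (vertical axis, log2 of reads per 10000000 plus 1) in the 4 libraries (horizontal axis), 1 library each; bars are exact 95% counting intervals, smaller than the point where not seen. miR-192 lies between 12.36 and 13.53 in the first 3 libraries, above miR-194 and miR-215, while the library labelled MCF-10A cell has all 3 within 15.39 to 16.54.

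The balance among the 3 miRNAs, which does not depend on depth or scaling, differed between libraries. Of their summed reads, miR-192 made up 84.2% (82.6 to 85.7) in MDA-MB-231 exosomes, 79.6% (76.7 to 82.3) in MCF-10A exosomes, 90.6% (89.7 to 91.4) in MDA-MB-231 cells and 31.4% (31.2 to 31.6) in the library labelled MCF-10A cell. In the last of these miR-194 held 47.3% (47.1 to 47.5) and miR-215 21.3% (21.1 to 21.5). In the other 3 libraries miR-192 thus outweighed the other two together, and in that library it did not.

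**Figure D2:**
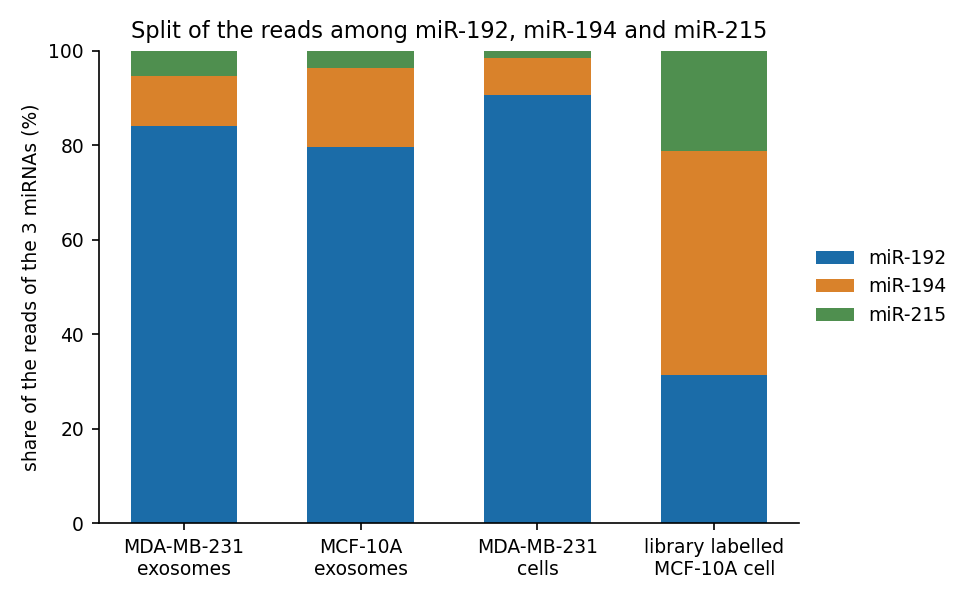
Share of miR-192, miR-194 and miR-215 (stacked bars, percent) in the summed reads of the 3 miRNAs, by library, 1 library each. miR-192 takes 79.6% to 90.6% in the first 3 libraries, with 31.4% in the library labelled MCF-10A cell.

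miR-192 and the chromosome 11 copy of miR-194 leave 1 transcript, yet their reads were unequal. There were 8.06 miR-192 reads per miR-194 read in MDA-MB-231 exosomes (7.01 to 9.30), 4.74 in MCF-10A exosomes (3.94 to 5.73) and 11.4 in MDA-MB-231 cells (10.2 to 12.8), with 0.664 in the library labelled MCF-10A cell (0.658 to 0.671). All 4 intervals were apart. Per miR-215 read, which differs from miR-192 at 2 bases, there were 15.6 miR-192 reads in MDA-MB-231 exosomes (12.9 to 19.0), 22.0 in MCF-10A exosomes (15.2 to 32.8) and 60.4 in MDA-MB-231 cells (47.6 to 78.0), with 1.47 in the library labelled MCF-10A cell (1.46 to 1.49). Here the exosome libraries overlapped, while the cell libraries lay on either side of them. A ratio of reads between different miRNAs also holds the ligation bias of each sequence, so these values compare libraries and not the amounts of the miRNAs. The loci on chromosome 1 pair miR-194 with miR-215, and this ratio was 1.94 in MDA-MB-231 exosomes (1.54 to 2.45), 4.63 in MCF-10A exosomes (3.10 to 7.12) and 5.29 in MDA-MB-231 cells (4.08 to 6.97), with 2.22 in the library labelled MCF-10A cell (2.20 to 2.24).

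The first comparison set exosomes of the cancer line against those of the non-transformed line. All 3 miRNAs had more reads per 10000000 in MDA-MB-231 exosomes, by less than 4-fold. miR-215 was 3.16-fold higher (2.10 to 4.90), miR-192 2.25-fold higher (2.06 to 2.46) and miR-194 1.32-fold higher (1.07 to 1.65), though under upper-quartile scaling miR-194 had a log2 difference of −0.04 in place of 0.41. Names that differed by 4-fold or more (2 on the log2 scale) were called higher or lower, and of the 3 miRNAs 0 passed, where 29.3% of the 505 names tested were higher and 19.0% lower. The median log2 difference over all 505 names was 0.59, and relative to it miR-192 was at 0.58, miR-194 at −0.18 and miR-215 at 1.07. The 3 miRNAs thus lay in the middle of the distribution, with 41.8%, 51.5% and 31.5% of names above miR-192, miR-194 and miR-215. Between these exosomes 7 of 7 tested names of stroma and vessel, 6 of 6 of blood and 4 of 4 of muscle were called higher in MDA-MB-231. Their median log2 differences were 7.80, 4.05 and 5.69. With names at 0 set at 3 reads they were 4.87, 4.05 and 1.71, the last over 3 names. By counting intervals, for names with at least 10 reads, 7, 6 and 2 were higher. Over all 342 names tested by that rule, 171 were higher and 98 lower. Of 3 neural names 1 was called higher and 1 lower. The part of that content in the differences of the 3 miRNAs was not tested.

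In MDA-MB-231 the second comparison asked how exosomes differ from their parent cells. miR-215 was 8.17-fold higher in exosomes (6.002 to 11.2), miR-194 2.99-fold (2.52 to 3.54) and miR-192 2.11-fold (1.997 to 2.23). Of the 3, miR-215 alone passed 4-fold, where 22.2% of the 499 names tested were called higher and 13.4% lower. The log2 differences were 3.02 for miR-215, 1.58 for miR-194 and 1.08 for miR-192, against a median of −0.09 over all names, and 16.8%, 24.8% and 30.1% of names lay above them. The least abundant of the 3 in cells was thus the one with the largest difference, and the read ratio of miR-192 to miR-215 was 15.6 in exosomes, against 60.4 in cells. The miR-215 values rest on 116 reads in exosomes and 68 in cells, and the division of reads between miR-192 and miR-215 is uncertain. Of the other-tissue lists, 7 of 7 tested names of stroma and vessel, 6 of 6 of blood and 4 of 4 of muscle were called higher in exosomes than in cells. By counting intervals, for names with at least 10 reads, 7, 6 and 2 of them were higher. Over all 427 names tested by that rule, 138 were higher and 155 lower. Of the neural list 0 of 3 were called higher and 1 lower, with a median of −1.47, and by counting intervals 1 was higher and 2 lower. The other intestine, kidney and pancreas list had a median of −0.87. The part of such RNA, from any source, in the 3 differences was not tested.

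MCF-10A exosomes and MDA-MB-231 cells are the pair of libraries, other than the exosome pair, that differ in line and leave the deviating library out. Neither is the control of the other, and line and fraction cannot be told apart in it. miR-192 was at 12.36 in MCF-10A exosomes and 12.45 in MDA-MB-231 cells, a ratio of 0.938 (0.863 to 1.02) that was not distinguishable from 1 at this depth and whose log2 value of −0.09 became 0.10 under upper-quartile scaling. miR-194 was 2.26-fold higher in MCF-10A exosomes (1.84 to 2.76) and miR-215 2.58-fold higher (1.62 to 4.02). Of the 3 miRNAs 0 were called, where 19.3% of 482 names were higher and 26.6% lower, with a median log2 difference of −0.28. Both exosome libraries therefore held more miR-194 and miR-215 per 10000000 reads than MDA-MB-231 cells did.

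Against the library labelled MCF-10A cell, all 3 miRNAs were lower in the other libraries. In MDA-MB-231 cells miR-192 was 11.3-fold lower (10.96 to 11.7), miR-194 lower by 194-fold (175 to 216) and miR-215 464-fold lower (366 to 597) than in it. All 3 were called lower, where 54.3% of the 665 names tested were lower and 17.3% higher. The median of all names was itself −2.83, and relative to it the log2 differences were −0.67 for miR-192, −4.77 for miR-194 and −6.01 for miR-215. miR-192 thus sat near the middle of all names, with 45.1% of them below it, while 18.9% lay below miR-194 and 12.2% below miR-215.

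In MCF-10A exosomes miR-192 was 12.1-fold lower (11.2 to 13.0), miR-194 86.1-fold lower (72.9 to 102) and miR-215 180-fold lower (126 to 266) than in that library. All 3 were again called lower, where 57.2% of 661 names were lower and 15.4% higher. The median of all names was −3.27, and relative to it miR-192 was at −0.32, miR-194 at −3.16 and miR-215 at −4.21. Both comparisons share this library, so they are not independent of each other. Under upper-quartile scaling the 4-fold call of miR-192 was lost in both, at −1.06 for MDA-MB-231 cells and −0.96 for MCF-10A exosomes, and those of miR-194 and miR-215 held. The content of that library described above moves with these differences, and its part in them was not tested.

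**Figure D3:**
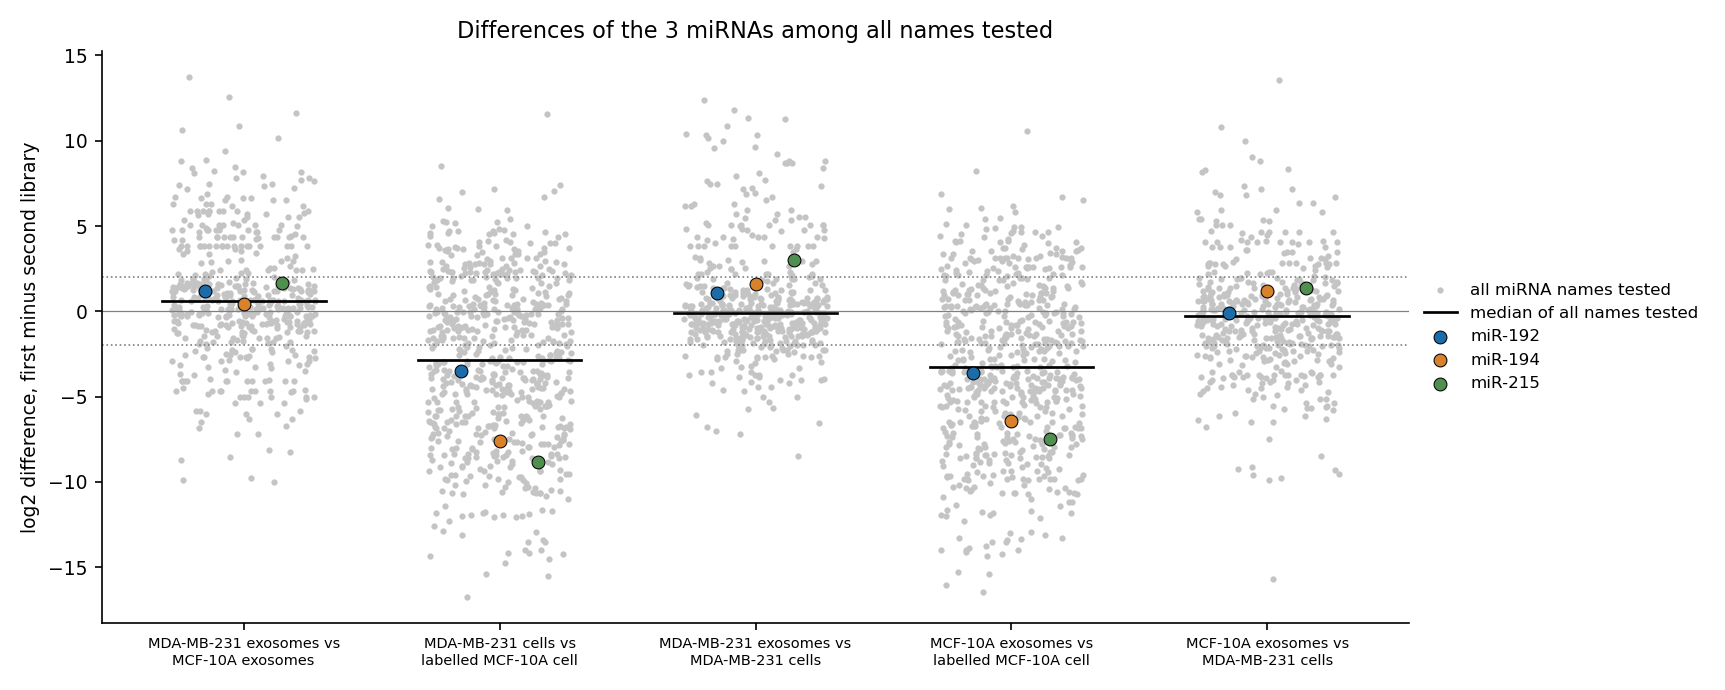
Log2 difference of each miRNA name past the minimum (grey points) and of miR-192, miR-194 and miR-215 (coloured points) in the 5 comparisons, first library minus second, 1 library each; black lines are medians of all names and dotted lines the 4-fold size. The 3 miRNAs lie between −0.09 and 3.02 where the library labelled MCF-10A cell is not used, and between −8.84 and −3.50 where it is.

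The other arms of the hairpins, named with a star, were scarce. miR-192*, the 3′ arm of MIR192, had 0 reads in MDA-MB-231 exosomes, MCF-10A exosomes and MDA-MB-231 cells, which allows up to 19.6, 23.9 and 4.08 reads per 10000000, and stood at 7.8 (243 reads) in the library labelled MCF-10A cell. Relative to that library, MDA-MB-231 cells were lower by at least 54.4-fold and MCF-10A exosomes by at least 9.30-fold, taking 3 reads for 0, and under upper-quartile scaling these bounds were 10.02 and 1.502. miR-194*, the 3′ arm of MIR194-2, had 3 reads in MDA-MB-231 exosomes, 5 in MCF-10A exosomes and 11 in MDA-MB-231 cells, with 74 in the library labelled MCF-10A cell. This is the 1 name here that can be placed at a single miR-194 locus, the one beside MIR192.

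Reads of miR-194 per read of miR-194* were 75 in MDA-MB-231 exosomes (25.3 to 366), 27.8 in MCF-10A exosomes (11.6 to 87.0) and 32.7 in MDA-MB-231 cells (18.1 to 66.2), against 1408 in the library labelled MCF-10A cell (1122 to 1794). The first 3 intervals overlapped and the last lay above them. MDA-MB-231 cells were 4.52-fold lower than that library in miR-194* (2.38 to 9.44) and 194-fold lower in miR-194 itself. Under upper-quartile scaling the log2 difference of miR-194* between the cells turned to 0.26 from −2.10, so its direction depends on the scaling. The mature strand and the star strand thus differed unequally between the cell libraries.

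The list of other miRNAs of intestine, kidney and pancreas held miR-375, of pancreatic islets and gut endocrine cells, miR-204 and its relative miR-211, and the pancreatic miR-216a, miR-216b and miR-217. miR-375 stood at 5.54 in MDA-MB-231 exosomes (7 reads), 7.86 in MCF-10A exosomes (29 reads) and 1.9 in MDA-MB-231 cells (2 reads), with 11.03 in the library labelled MCF-10A cell (2286 reads). miR-217 stood at 6.53 (14 reads), 5.35 (5 reads), 7.4 (123 reads) and 6.25 (82 reads) in that order, highest in MDA-MB-231 cells. The 6 names together summed (per 10000000) to 183 reads in MDA-MB-231 exosomes, 271 in MCF-10A exosomes and 241 in MDA-MB-231 cells, with 4107 in the library labelled MCF-10A cell. In the same order of libraries miR-192, miR-194 and miR-215 summed to 14050, 6600, 6177 and 201500.

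Of this list's 6 names, 3 passed the minimum between the exosomes, with 1 higher, 1 lower and 1 within 4-fold and a median log2 difference of 1.18 (0.71 with names at 0 set at 3 reads), against 0.59 over all names. Between the cells 5 passed, with 0 higher and 2 lower and a median of 0.25, against −2.83. Under upper-quartile scaling this became 3 higher and 2 lower, with a median of 2.59. Over all 665 names that scaling gave 226 higher and 274 lower, with a median of −0.43. Between MDA-MB-231 exosomes and cells 5 passed, with 2 higher and 2 lower and a median of −0.87 (−0.06 at 3 reads), against −0.09. For MCF-10A exosomes against the library labelled MCF-10A cell 5 passed, with 0 higher and 4 lower and a median of −3.97 (−2.03 at 3 reads, over 4 names), against −3.27. Between MCF-10A exosomes and MDA-MB-231 cells 4 passed, with 1 higher and 3 lower and a median of −3.24 (−0.91 at 3 reads, over 3 names), against −0.28. Most of these names rested on few reads outside the library labelled MCF-10A cell. In the order of these comparisons, 29.3%, 17.3%, 22.2%, 15.4% and 19.3% of all names tested were higher at 4-fold. The shares of all names that were lower at 4-fold were 19.0%, 54.3%, 13.4%, 57.2% and 26.6%. In the same order, by counting intervals for names with at least 10 reads, 0, 1, 0, 0 and 1 of the list were higher. Those lower were 1, 2, 2, 3 and 2. Over all names that rule gave 171 of 342, 175 of 661, 138 of 427, 119 of 629 and 119 of 407 higher. It gave 98, 448, 155, 391 and 169 lower.

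Liver is a tissue in which miR-192 and miR-194 are abundant, and miR-122 is its defining miRNA. miR-122 stood at 14.79 in MDA-MB-231 exosomes (4342 reads), 6.33 in MCF-10A exosomes (10 reads) and 4.42 in MDA-MB-231 cells (15 reads), with 14.26 in the library labelled MCF-10A cell (21458 reads). miR-122 was the higher of the pair in exosomes of MDA-MB-231, where miR-192 stood at 13.53, and far below miR-192 in MCF-10A exosomes and MDA-MB-231 cells. In these last libraries the other liver names, miR-122*, miR-885-5p and miR-885-3p, were at 0. Of the list's 4 names, miR-122 and miR-885-3p were tested and higher between the exosomes and between MDA-MB-231 exosomes and cells. There 29.3% and 22.2% of all names were higher, and miR-885-3p rested on 2 reads against 0. All 4 liver names were lower in each comparison against the library labelled MCF-10A cell, with medians of −7.42 in both. With names at 0 set at 3 reads these medians were −5.38 for MDA-MB-231 cells and −3.04 for MCF-10A exosomes, the latter over 3 names. Over all names 54.3% and 57.2% were lower in these comparisons, with medians of −2.83 and −3.27, and under upper-quartile scaling the list's medians were −5.63 and −5.37. Between MCF-10A exosomes and MDA-MB-231 cells 1 was tested, miR-122, and it lay within 4-fold at 1.91 (2.11 under upper-quartile scaling).

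The p53-responsive list held miR-34a, miR-34b, miR-34c-5p and miR-107. Its 4 names summed (per 10000000) to 601 reads in MDA-MB-231 exosomes, 1139 in MCF-10A exosomes and 1315 in MDA-MB-231 cells, with 32210 in the library labelled MCF-10A cell. Between the exosomes 0 of 3 tested names were higher and 1 was lower, where 29.3% of all names were higher and 19.0% lower. The median log2 difference was 0.41 (−0.04 under upper-quartile scaling), against 0.59 over all names. Between MDA-MB-231 exosomes and cells 0 of 3 were higher or lower at 4-fold, where 22.2% of all names were higher and 13.4% lower. The list's median was −0.77, against −0.09. Against the library labelled MCF-10A cell 4 of 4 were lower, with a median of −5.66 in MDA-MB-231 cells and of −6.09 in MCF-10A exosomes (−5.02 with names at 0 set at 3 reads), where 54.3% and 57.2% of all names were lower, with medians of −2.83 and −3.27. Under upper-quartile scaling 3 of 4 were lower in each, with medians of −3.22 and −3.46, where 274 of 665 and 285 of 661 names were lower. Between MCF-10A exosomes and MDA-MB-231 cells 1 of 3 was higher and 0 lower, with a median of −0.55. There 19.3% of all names were higher and 26.6% lower. Within MDA-MB-231 miR-34c-5p stood at 7.67 in exosomes and 7.64 in cells, and miR-107 at 8.41 in exosomes and 9.99 in cells, against 9.57 in exosomes and 6.55 in cells for miR-215.

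**Figure D4:**
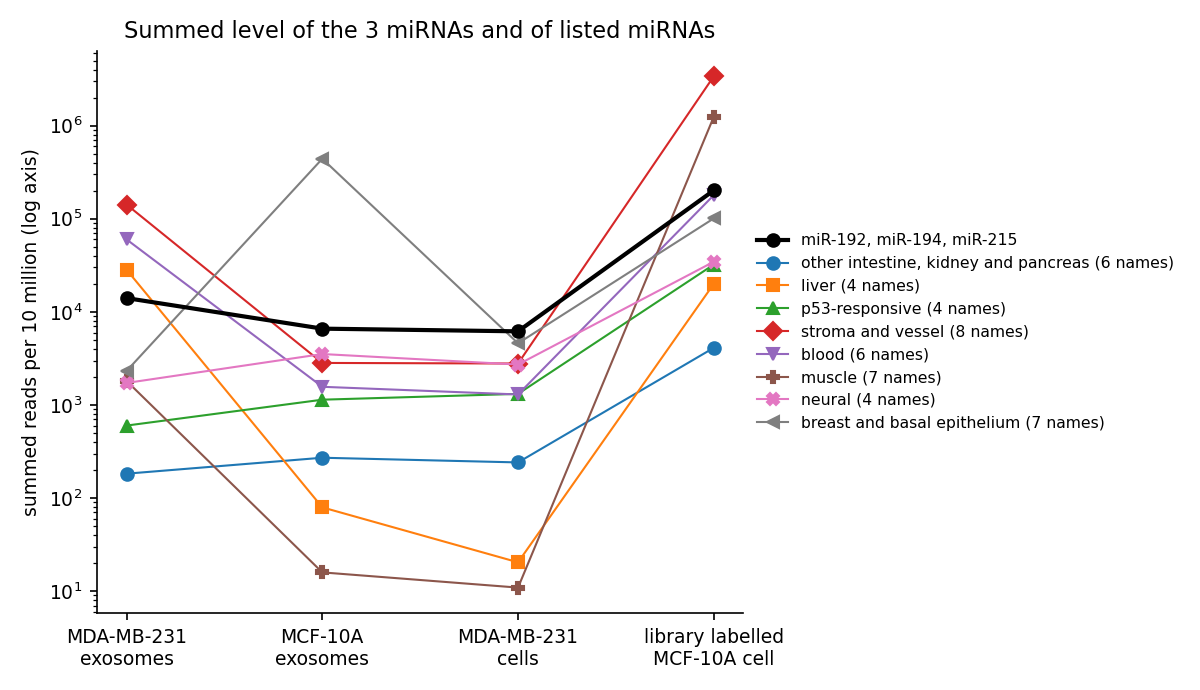
Summed reads per 10000000 (vertical log axis) of miR-192, miR-194 and miR-215 (thick black line) and of 8 lists of miRNAs in the 4 libraries, 1 library each; lines only join the points of 1 list. The 3 miRNAs sum to 6177 in MDA-MB-231 cells, with 201500 in the library labelled MCF-10A cell, while the liver list lies below them in MCF-10A exosomes and MDA-MB-231 cells and lies above them in MDA-MB-231 exosomes.

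The names with the profile most like each member were taken as those at the smallest Euclidean distance over the 4 log2 levels, each name centred on its own mean, among the 565 other names that reached 50 reads per 10000000 anywhere. For miR-192 they were miR-22 (distance 0.50), miR-374b (0.55), miR-128 (0.72), miR-320b (0.74) and miR-664 (0.91). For miR-194 they were miR-95 (0.58), followed by miR-34a*, miR-656, miR-490-5p and miR-510 (1.16 each), which were at 0 in the other 3 libraries. For miR-215 they were miR-129* (1.13), miR-299-5p (1.22), miR-194 (1.26), miR-34c-3p (1.40) and miR-543 (1.57). All of these but miR-194 were at 0 in MCF-10A exosomes and MDA-MB-231 cells and at 2.91 or 3.81 in MDA-MB-231 exosomes, so they reached the minimum through the library labelled MCF-10A cell alone. Among the members themselves, miR-194 and miR-215 were 1.26 apart, miR-192 and miR-194 3.17 and miR-192 and miR-215 3.92.

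With 4 points these names describe the libraries only. Without the library labelled MCF-10A cell, an alternative chosen after seeing the data, the nearest name was let-7c for miR-192 (distance 0.07), miR-320d for miR-194 (0.25) and miR-193a-5p for miR-215 (0.22). The distance was then 0.90 between miR-192 and miR-194, 1.11 between miR-194 and miR-215 and 1.43 between miR-192 and miR-215, so the closest pair of members differed with that library left out. Of the first 5, miR-22 was near miR-192 and miR-95 near miR-194 in both lists, and for miR-215 no name was.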

How the data were processed

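Small RNA libraries, 1 for each of the 4 groups, were read from the authors' tables. Per the labels' protocols, size selection kept small RNAs of 17 to 52 nt, and ligation needed a 5′ monophosphate. The submitters' processing notes list Novoalign, edgeR and hg18 without versions or roles. How reads were assigned to names, the miRBase release and the purification of exosomes are not given in the sources used here. Values as deposited are log2 levels with 2 decimals. From the values, 2 to that power, minus 1, sums to about 10000000 in each library and low values are whole multiples of 1 step, which gave reads and depth (single reads were resolved for 40.1% to 65.7% of the names above 0 in a library, and within the deposited rounding 100% of these were whole). A value of 0 is 0 reads and allows up to 3 reads.

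Differences are of the deposited log2 levels (pseudocount 1 per 10000000), for names reaching 10 reads per 10000000 in either library, and ratios are of recovered reads, with exact conditional binomial (ratios) or Clopper-Pearson (shares) 95% intervals. The recovery of depth and of reads at low values, and the intervals, were run on simulated counts. These were drawn under the counting model that the intervals assume, so they check the code and not other sources of error. Names printed are the members, their star arms, the 5 nearest profiles and the 2 most abundant names of a list, and further list names are printed to identify a list or, as with the liver names at 0, were chosen after their values were seen. The members and lists were chosen with earlier results of these data known. Alternatives were upper-quartile scaling, scaling to reads outside the lists of other tissues and the members, a pseudocount of 10, recovered reads, no filter and other call rules. Python 3.11.15, SciPy 1.17.1 and pandas 2.3.3 were used.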

Additional observations from a re-analysis of the deposited data

Results flagged for a closer look

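For each of the 3 miRNAs the difference between exosomes and cells ran in opposite directions in the lines, higher in exosomes of MDA-MB-231 and lower in exosomes of MCF-10A, with counting intervals that excluded no difference in each. The log2 difference in MDA-MB-231 minus that in MCF-10A was 4.67 for miR-192 (1.08 and −3.59), 8.01 for miR-194 (1.58 and −6.43) and 10.50 for miR-215 (3.02 and −7.48). With 1 library per group the difference between the lines was not tested. It uses the library labelled MCF-10A cell, whose identity is in doubt, so it is a difference between libraries and not shown to be one between lines. By the same values MDA-MB-231 was higher than MCF-10A in exosomes and lower than that library in cells, except that miR-194 in exosomes was at −0.04 under upper-quartile scaling. Under upper-quartile scaling the values were 1.78, 5.12 and 7.62, and over reads outside the lists of other tissues 5.72, 9.06 and 11.55, in the same order of miRNAs. As deposited, the median exosome against cell difference over all names tested was itself −0.09 in MDA-MB-231 and −3.27 in MCF-10A. Relative to these medians miR-192 was at 1.17 and −0.32, miR-194 at 1.67 and −3.16 and miR-215 at 3.11 and −4.21. The share of all names with opposite directions was not counted.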

How the results depend on the processing

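With 1 library per group nothing could be left out as a replicate. No paired analysis was possible because each group has 1 library. Of 60 values of the 15 log2 differences of the 3 miRNAs under 4 alternatives each, 2 changed sign and 2 changed their 4-fold call, all under upper-quartile scaling. That scaling gave 0.72 for miR-192 and −0.04 for miR-194 between the exosomes, 0.82 and 1.32 between MDA-MB-231 exosomes and cells, and 0.10 for miR-192 between MCF-10A exosomes and MDA-MB-231 cells. Against the library labelled MCF-10A cell it gave −1.06, −5.16 and −6.40 for miR-192, miR-194 and miR-215 in MDA-MB-231 cells, and −0.96, −3.80 and −4.85 in MCF-10A exosomes. Scaling to reads outside the lists of other tissues gave −4.52, −8.62 and −9.86, and −4.61, −7.45 and −8.50, in the same order. The median over all names under upper-quartile scaling was −0.43 and −0.68 in these comparisons, against −2.83 and −3.27 as deposited, and the share of called names that were higher was 45.2% and 42.5%, against 24.2% and 21.3%. The pseudocount of 10 and the recovered reads moved none of the 15 differences past their counting intervals, nor did that pseudocount move any of the 12 read ratios. Of the counts of names called, those between MDA-MB-231 exosomes and cells moved by over 1.5 times, with 178 at 4-fold, 302 at 2-fold and 293 by the counting interval. Of the 40 medians of lists, 16 moved by at least 1 on the log2 scale under upper-quartile scaling and 8 under scaling outside the lists, all in comparisons with the library labelled MCF-10A cell. The log2 difference of miR-194* between the cells turned from −2.10 to 0.26 under upper-quartile scaling, and for MCF-10A exosomes against that library from −0.75 to 1.81. Depth limits miR-215 in MCF-10A exosomes (30 reads) and miR-194* in every library but the one labelled MCF-10A cell.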
